A study of Mus musculus with 16 samples.

Results

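The Eph receptors with their ephrin ligands, the semaphorins with their plexin and neuropilin receptors, the netrins with Dcc and the Unc5 receptors, and the Slit ligands with the Robo receptors were followed in the hippocampus of mice that carry an activating or an inhibiting CREB transgene. Members were chosen by gene symbol in the platform annotation, and a probe set was kept where its intensity was above 99 on at least 2 of the 16 arrays. The symbols matched 155 probe sets of 68 genes, and 120 probe sets of 61 genes passed, out of 45101 probe sets on the array and 27047 that were tested. Of the 120, 90 were above that level on all 16 arrays, 30 on some arrays only, none in 1 group only, and 6 in 1 cohort only. Efna4, Epha1, Epha2, Epha8, Ephb4, Plxna4os1 and Robo3 had no probe set that passed. The level was taken from the second-highest of the 16 values, which was 102.2 for an Efnb2 probe set and 107.9 for a Plxnc1 probe set just inside it, and 90.34 for a Plxna1 probe set and 86.23 for another Efnb2 probe set just outside it.

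These families steer growing axons. Eph receptors are receptor tyrosine kinases that bind ephrins on the surface of neighbouring cells, EphA receptors mostly the lipid-anchored ephrin-A ligands and EphB receptors mostly the transmembrane ephrin-B ligands, and contact usually repels the growth cone. Secreted class 3 semaphorins act through a neuropilin and a plexin-A together, whereas many membrane-bound semaphorins bind plexins directly. Netrin attracts axons through Dcc and repels them through the Unc5 receptors, Slit repels through Robo, and the netrin-Gs are membrane-anchored relatives that act at synapses through other ligands. In the adult hippocampus many of these proteins remain in neurons and in glia, where EphA4 on dendritic spines with ephrin on astrocytes is a known pair.

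VP16-CREB is the transcription factor CREB joined to the activation domain of a viral protein and drives CREB target genes without a stimulus, and A-CREB is a dominant inhibitor that keeps CREB family proteins from binding DNA. Both transgenes are under tetO, which doxycycline (dox) in the diet keeps off, and the carriers are described as bitransgenic. The driver line, and with it the cells that express the transgene, is not given in the sources used here. All mice are labelled C57BL/6J, and the genotype of every control group is given as WT. The late VP16-CREB cohort held 3 pools of tetO-VP16-CREB mice and 3 of control littermates, 6 weeks of age, raised on dox until its removal 3 weeks before the experiment. The early VP16-CREB cohort held 2 pools of each genotype, 3 weeks of age, with dox removed 1 week before. Late and early therefore differ in age as well as in time off dox. The A-CREB cohort held 3 pools of TetO-A-CREB-95 mice (labelled C57BL6 F1/J in the genotype) and 3 of control littermates, 6 weeks of age and raised without dox. Each array held hippocampal RNA pooled from 3 to 4 mice of the same age, sex and genotype, so that a p-value below measures the spread between pools and not between mice. In pooled tissue, fewer cells of a type and less RNA per cell cannot be told apart.

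The 6 arrays of the late VP16-CREB cohort, controls included, stood apart from the other 10. Every array had the same trimmed mean of 500, yet the median intensity was 119.2 to 129.7 on those 6 and 75.28 to 93.61 on the others. Arrays correlated at 0.954 to 0.985 within groups and at 0.885 to 0.933 between that cohort and the others. Among the members, 8 probe sets (6.67%) read higher on all 6 of those arrays than on any other array and 5 (4.17%) read lower, against 12.5% and 3.56% of all tested probe sets. Transgenic pools were for this reason compared only with the littermates of their own cohort. In the A-CREB cohort, the first pool of either genotype had an Xist intensity of 34.49 (control) or 63.36 (A-CREB), while the other 14 arrays read 3611 to 6231. The ratio of the 3' to the 5' actin control probe set was 2.004 on control pool 2 of the early cohort. It was 1.976 on control pool 1 and 2.482 on transgenic pool 3 of the A-CREB cohort, and 1.365 to 1.651 on the other arrays.

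Cell type markers moved strongly in the late VP16-CREB cohort. Of the tested markers, 17 of 18 for microglia and macrophages rose (median log2 difference 2.26) and 11 of 12 for reactive astrocytes rose (2.59), while 9 of 10 for dentate granule neurons fell (median -1.55), among them Prox1. The summed dentate marker intensity was 14000 to 14150 in the control pools and 5291 to 6604 in the VP16-CREB pools. None of 6 CA1 markers (median -0.59) and none of 9 myelin markers (median -0.02) passed the test, although 5 of the CA1 markers had an unadjusted p under 0.05 and none of the myelin markers did. Early, 4 of 18 microglial and 5 of 12 reactive astrocyte markers rose and no dentate marker passed (median -0.56), with 5 of 10 at an unadjusted p under 0.05. In A-CREB mice no marker passed, with 6 of 18 microglial, 5 of 12 reactive astrocyte and 4 of 10 dentate markers at an unadjusted p under 0.05.

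After 3 weeks off dox, 5 guidance probe sets of 4 genes fell and 1 rose in VP16-CREB hippocampus. The genes that fell were Epha7 (at 2 of its probe sets), Epha4, Sema5a and Ntng1, all proteins of neuronal membranes, and the one that rose was Sema4d, a transmembrane semaphorin that signals through plexin-B. Differences are on the log2(intensity + 10) scale, which understates the change of dim probe sets, and a probe set was called at a Benjamini-Hochberg adjusted p under 0.05 in limma over all tested probe sets. In either direction 6 of 120 (5%) were called, against 3.93% of all tested probe sets. The lower calls made up 4.17% of the members, against 0.651% of all tested, and the higher call 0.833%, against 3.28%. The median member difference was -0.07, against -0.01 over all tested probe sets, and 74 of 120 members were below 0 (61.7%, against 52% of all). The pools did not overlap in 31 members that were lower (25.8%, against 12.8% of all) and in 12 that were higher (10%, against 14.9%). With any 1 of the 6 pools left out, the number called was 2 to 4. It was 2 without control pool 2, 3 without VP16-CREB pool 2 and 3 without VP16-CREB pool 3. Epha7 and Sema5a were called in each of the 6 fits. The calls of Epha4 at 1421929_at and of Ntng1 at 1449286_at were lost in all 6.

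**Figure D1:**
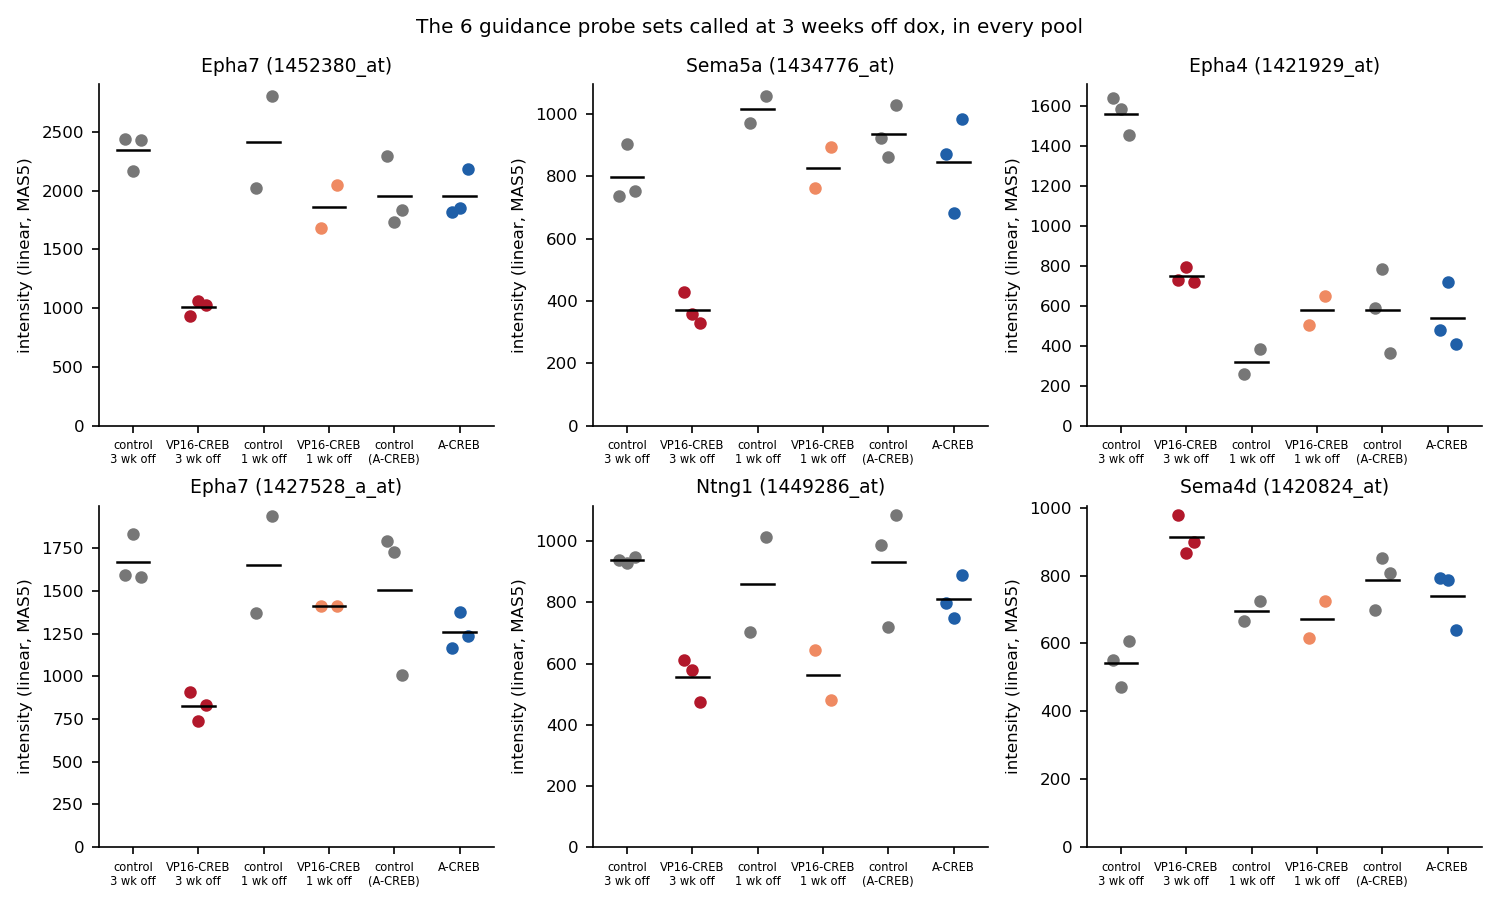
Intensity (linear scale) of the 6 probe sets called at 3 weeks off dox in every pool, with 1 point per pool and the group mean as a bar. In the late cohort (first 2 groups of each panel) the control and VP16-CREB pools do not overlap in any panel, and Epha4 reads far higher in the late controls (1451 to 1637) than in the controls of the other cohorts (256 to 785).

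Epha7 encodes a receptor tyrosine kinase for ephrin-A ligands and lies on chromosome 4 (28813066 to 28967503, GRCm38.p6, the build of all positions here). The probe set 1452380_at read 2437, 2166 and 2432 in the late control pools and 931, 1062.5 and 1023 in the VP16-CREB pools, so the highest VP16-CREB pool lay below the lowest control. The means were 2345 ± 155 and 1006 ± 67.5 (SD, n = 3 each), a log2 difference of -1.21 (SE 0.16, 95% interval -1.57 to -0.86, limma adjusted p = 0.000545). A second Epha7 probe set, 1427528_a_at, read 1597, 1835 and 1583 against 909, 741 and 833, again without overlap (log2 difference -1.01, SE 0.21, adjusted p = 0.0131). The other two probe sets differed by -1.02 (adjusted p = 0.117) and -0.65 (adjusted p = 0.163) and did not overlap either. All 4 Epha7 probe sets thus lay lower in every VP16-CREB pool than in any control pool. The call of 1427528_a_at was lost without control pool 2 (adjusted p = 0.0638), without VP16-CREB pool 2 (0.069) and without VP16-CREB pool 3 (0.0554). That of 1452380_at held with any one pool left out.

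Epha4, on chromosome 1 (77367182 to 77515107), encodes a receptor that binds ephrins of both classes. The probe set 1421929_at read 1637, 1585 and 1451 in the late controls and 730.3, 792 and 719 in the VP16-CREB pools, with no overlap and a log2 difference of -1.05 (SE 0.26, 95% interval -1.62 to -0.48, limma adjusted p = 0.0421). The other 4 Epha4 probe sets differed by -0.62 to -1.02 with adjusted p of 0.074 to 0.144, and none of them overlapped. The call at 1421929_at rested on all 6 arrays: with any one of them left out the adjusted p was 0.0955 to 0.151, and it was 0.0544 with no pseudocount and 0.0947 with no filter. The level of this probe set also differed between cohorts, as controls read 256 and 382 in the early cohort and 588, 785 and 364 in the A-CREB cohort. The VP16-CREB pools that were low against their littermates were therefore as bright as or brighter than most controls elsewhere.

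Across the EphA family, 16 of 18 probe sets of 6 genes were below 0 in the late cohort (median -0.55, against -0.01 for all tested). Of the 18, 13 were lower without overlap, against 12.8% of all tested, and these included all 5 of Epha4 and all 4 of Epha7. By the test 3 of the 18 fell, all from Epha7 and Epha4, against 0.651% of all tested. An unadjusted p under 0.05 was found for 9 of 18, against 13.5% of all tested probe sets. Those 9 were the 4 Epha7 and 5 Epha4 probe sets, so the family's unadjusted calls came from 2 genes. Epha5, a neuronal receptor for ephrin-A ligands, read 1189, 1394 and 1185 in controls and 806, 994 and 917 in VP16-CREB pools at 1435286_at (log2 difference -0.47, adjusted p = 0.564), and 3 of its 4 probe sets did not overlap. For Epha3, 1455426_at read 455, 497 and 467 against 326, 372 and 338 (-0.44, adjusted p = 0.493). Epha6 differed by -0.09 and Epha10 by 0.35, both with overlapping pools. The count below 0 was 16 of 18 also after quantile normalization and after centring arrays on the median.

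The EphB receptors and the ephrins had no call. None of their 17 probe sets had an unadjusted p under 0.05 in the late cohort, against 13.5% of all tested. Ephb1 differed by -0.05 and Ephb3 by -0.20, both with overlap, and Ephb6, which lacks kinase activity, read 757, 642 and 801 against 806, 805 and 865 without overlap (0.17, limma adjusted p = 0.864). Among the ephrin-A ligands 6 of 7 probe sets were above 0 (median 0.16), where 52% of all tested probe sets were below 0. Most EphA probe sets lay on the opposite side of 0, and the difference between the families was not tested. Pools did not overlap in 1 higher and 1 lower ephrin-A probe set. The lower was Efna2 at 1444606_at, with 375, 324 and 363 in controls and 322, 250 and 292 in VP16-CREB pools (-0.29). The other Efna2 probe set was above 0 (0.26). Efna3 at 1431170_at read 1169, 1103 and 1194 in controls and 1395, 1149 and 1337 in VP16-CREB pools, which overlapped (0.16, adjusted p = 0.786). Efna5, a repellent ligand for EphA receptors, differed by 0.16 (adjusted p = 0.817). Of the ephrin-B ligands, Efnb3 read 1336, 1469 and 1272 against 1259, 934 and 971 (-0.37, adjusted p = 0.581), and Efnb2 at its brightest probe set differed by -0.28 with overlap.

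Sema5a, on chromosome 15 (32244813 to 32696341), encodes a transmembrane semaphorin with thrombospondin repeats that restrains synapse formation on dentate granule neurons. The probe set 1434776_at read 737, 902 and 753 in the late controls and 429, 358 and 329 in the VP16-CREB pools. The groups did not overlap, with means of 797 ± 91.2 and 371.9 ± 51.4 (SD, n = 3 each) and a log2 difference of -1.08 (SE 0.17, 95% interval -1.44 to -0.73, limma adjusted p = 0.00152). This call was kept in each fit with a pool left out. The second probe set, 1437422_at, read 1771, 982 and 1513 against 628, 805 and 745 and did not overlap, but with more spread among controls (-0.93, adjusted p = 0.215). Both Sema5a probe sets thus read lower in every VP16-CREB pool than in any control pool, and 1 of the 2 passed the test.

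Sema4d, on chromosome 13 (51685529 to 51793678), read 553, 470.4 and 607 in the late controls and 979.6, 866 and 898 in the VP16-CREB pools at 1420824_at. All VP16-CREB pools were above all controls (543.3 ± 68.7 and 914.6 ± 58.6, SD, n = 3 each), and the log2 difference was 0.75 (SE 0.15, 95% interval 0.43 to 1.06, limma adjusted p = 0.00988). Without control pool 2 the adjusted p was 0.055. The other Sema4d probe set, 1434596_at, read 369, 383 and 367 against 499, 420.3 and 377, which overlapped (0.20, adjusted p = 0.818), so the probe sets of this gene disagreed on the size. Sema4d is made by oligodendrocytes and by immune cells. The summed intensity of the myelin markers was 55770 to 70370 in controls and 52870 to 68830 in VP16-CREB pools, while that of the microglial and macrophage markers was 17980 to 18710 and 73630 to 87850, whose part in the result was not tested.

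By class, 7 of 9 probe sets of the transmembrane class 4 semaphorins were above 0 in the late cohort (median 0.26). So were 5 of 6 of class 6 (0.13) and 7 of 12 of the secreted class 3 (0.10), where 52% of all tested probe sets were below 0. All 4 of class 5 were below 0 (median -0.52), but the 2 genes differed. The 2 kept Sema5a probe sets lay at -1.082 and -0.925, and the 2 of Sema5b at -0.114 and -0.034 with overlap. Sema4g read 330.1, 335 and 299.9 in controls and 535, 389.6 and 496 in VP16-CREB pools, without overlap (0.53, adjusted p = 0.0892). The 2 probe sets of Sema4f went the other way within class 4, with 969, 1087 and 917 against 855, 698 and 521 at 1439768_x_at (-0.54, adjusted p = 0.215). Sema7a, a lipid-anchored semaphorin, read 2801, 3164 and 2518 against 2327, 1838 and 2237 (-0.41, adjusted p = 0.646), again without overlap. Sema6d differed by 0.08 at its brightest probe set.

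**Figure D2:**
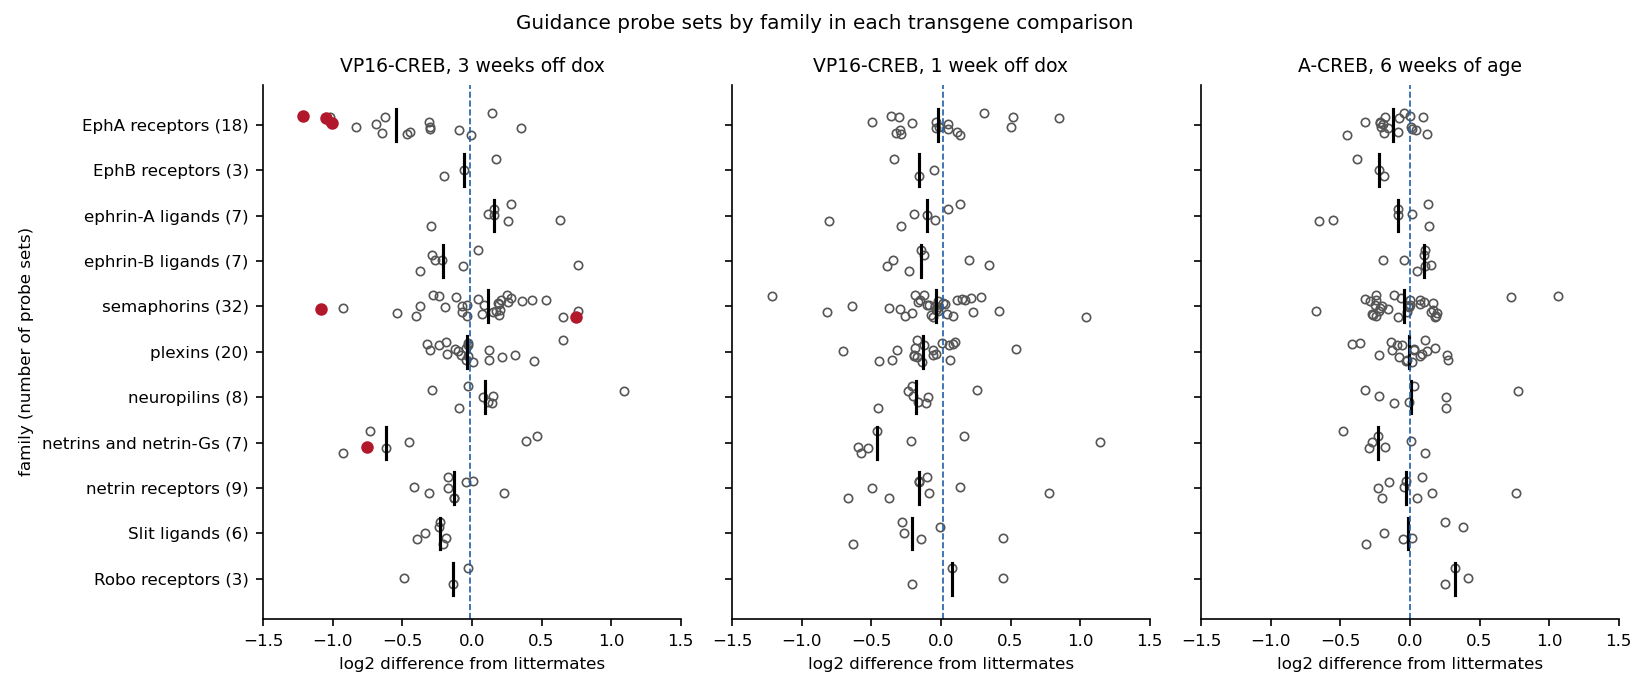
Log2 difference from littermates of each of the 120 guidance probe sets, by family, in the 3 transgene comparisons, where open points were not called, filled points were called, black bars are family medians and the dashed line is the median of all tested probe sets. In the late VP16-CREB panel 16 of 18 EphA probe sets lie below 0 and all 6 called points are there, while the other 2 panels hold none.

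The plexins had no call in the late cohort, and 2 of their 20 probe sets had an unadjusted p under 0.05, against 13.5% of all tested. All 9 plexin-A probe sets, of the receptors that pair with neuropilins for class 3 semaphorins, were below 0 (median -0.18), none of them without overlap, and all 5 plexin-B probe sets, of the receptors for class 4 semaphorins, were above 0 (median 0.31), 2 of them without overlap, where 52% of all tested probe sets were below 0. The difference between these subfamilies was not tested. Plxnb1 read 444, 498 and 438 in controls and 607, 626 and 653 in VP16-CREB pools at 1435254_at (0.44, limma adjusted p = 0.33). Plxnb2 read 538, 592 and 521 against 747, 1052 and 843 (0.66, adjusted p = 0.334). Neither passed the test. Plxna2 at 1453286_at differed by -0.18 and Plxnc1 at 1423213_at by 0.01, both with overlap. The neuropilins Nrp1 and Nrp2, the ligand-binding partners, differed by -0.09 and 0.08 at their brightest probe sets.

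Ntng1, on chromosome 3 (109780050 to 110149972), encodes netrin-G1, which is anchored on axons and binds a postsynaptic adhesion protein rather than Dcc. At 1449286_at it read 937, 930.2 and 949 in the late controls and 610.3, 579 and 475 in the VP16-CREB pools. The controls agreed closely (938.9 ± 9.63, SD, n = 3) and lay above all VP16-CREB pools (554.8 ± 71), with a log2 difference of -0.76 (SE 0.19, 95% interval -1.17 to -0.35, limma adjusted p = 0.0421). With any one of the 6 arrays left out the call was lost (adjusted p = 0.064 to 0.203), as it was with no filter (0.103) and with arrays centred on the median (0.0626). The other 3 Ntng1 probe sets differed by -0.74, -0.62 and -0.93 (adjusted p = 0.364, 0.224 and 0.422), and none overlapped. The secreted netrins lay on the other side. Ntn1 read 177, 164 and 139.8 against 208, 194 and 235 without overlap (0.38, adjusted p = 0.187), and Ntn4 differed by 0.47 with overlap (adjusted p = 0.363).

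The netrin receptors and the Slit and Robo genes had no call in the late cohort. Of their 18 probe sets 1, Robo2, had an unadjusted p under 0.05, against 13.5% of all tested. Dcc at 1440487_at read 1056, 1083 and 1056 in controls and 864, 920.1 and 794 in VP16-CREB pools (-0.31, limma adjusted p = 0.584), and Unc5a differed by -0.17 with overlap. All 6 Slit probe sets were below 0 (median -0.23) and so were all 3 Robo probe sets. Slit2 at 1424659_at read 1024, 1063 and 1179.8 against 843, 998 and 945, without overlap (-0.23, adjusted p = 0.732), and Slit1 at 1440056_at differed by -0.34 with overlap. Robo2 read 159, 142 and 128 against 94.8, 109 and 92.8 without overlap (-0.49, adjusted p = 0.171), whereas Robo1 differed by -0.03 at its brightest probe set, with overlap. Robo2 also differed between cohorts, since the early controls read 11.7 and 22.5. Over the families, 34 genes had more than 1 probe set, and in 14 of them all probe sets were lower, in 10 all were higher and in 10 the signs were mixed.

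**Figure D3:**
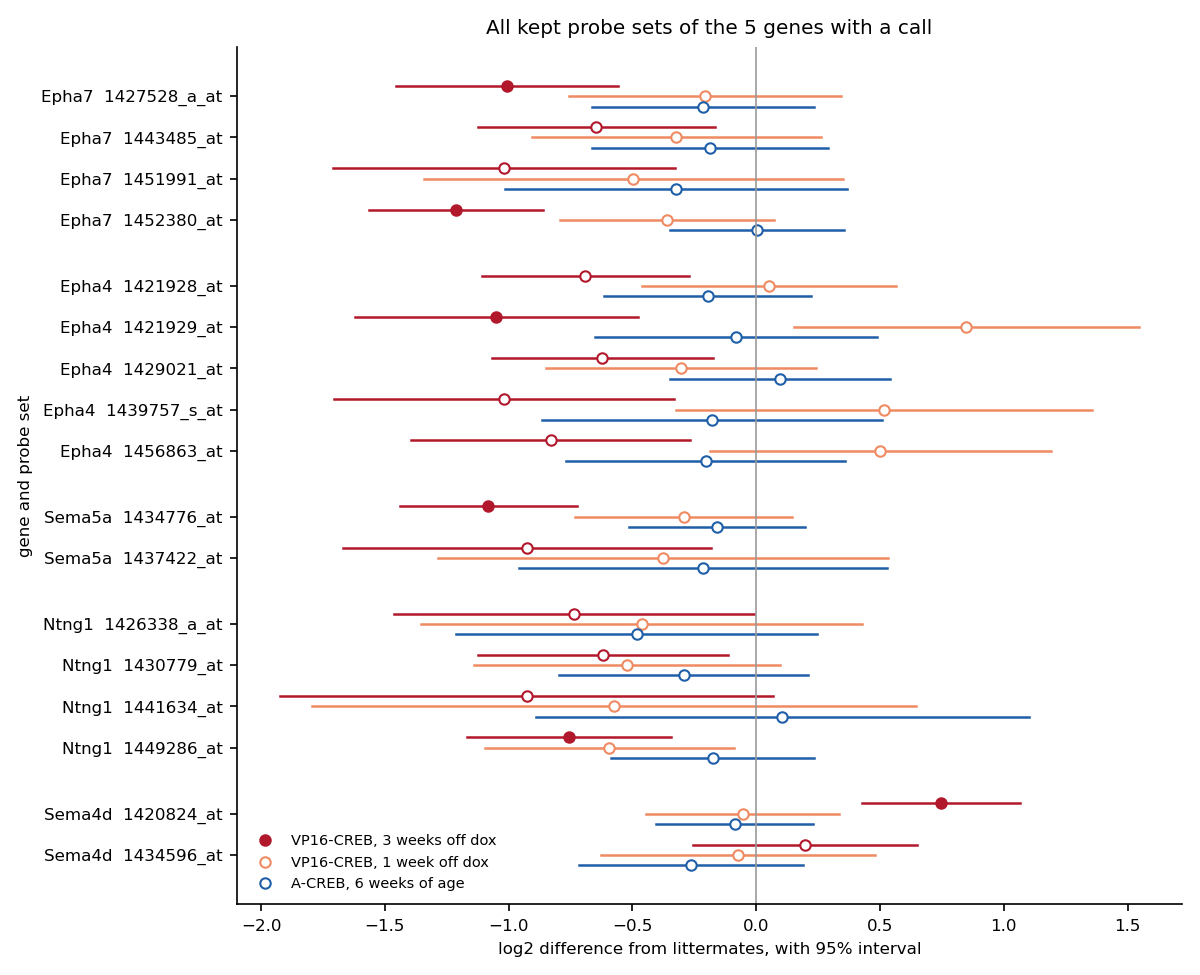
Log2 difference from littermates with its 95% interval for every kept probe set of the 5 genes with a call, in each of the 3 transgene comparisons, where filled points were called. The late VP16-CREB intervals of all 4 Epha7 and all 5 Epha4 probe sets lie below 0, and the A-CREB interval of every probe set shown spans 0.

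Since CREB binds the palindrome TGACGTCA and its shorter form TGACG, the 250 bases before the RefSeq transcript starts were searched for them (GRCm38.p6, both strands, so that the short form is TGACG or CGTCA, and every full palindrome also holds the short form). An entry was found for 51 of the 61 genes, with 67 windows. The palindrome was in none of the 67, against 1.55% of 32851 RefSeq promoter windows, and the short form was in 6 of the 67 (8.96%), against 17.8% of all. The 6 were Efnb1, Efnb2, Epha4, Ephb3, Sema3d and Unc5c. The windows of 3 of the genes that fell are printed here because they show the only match among the called genes. That match, in capitals, starts 57 bases before the transcript start (position -57) in Epha4 (chr1:77515089-77515338, minus strand), and none of these letters are in the windows of Epha7 (chr4:28812881-28813130, plus strand) or Sema5a (chr15:32244563-32244812, plus strand). A match is a run of letters, not a measured binding site.
Epha4: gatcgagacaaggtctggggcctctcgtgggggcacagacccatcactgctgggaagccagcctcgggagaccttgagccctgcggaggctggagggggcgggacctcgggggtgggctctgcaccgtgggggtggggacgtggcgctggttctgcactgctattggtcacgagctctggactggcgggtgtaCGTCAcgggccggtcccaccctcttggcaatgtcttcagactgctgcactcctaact
Epha7: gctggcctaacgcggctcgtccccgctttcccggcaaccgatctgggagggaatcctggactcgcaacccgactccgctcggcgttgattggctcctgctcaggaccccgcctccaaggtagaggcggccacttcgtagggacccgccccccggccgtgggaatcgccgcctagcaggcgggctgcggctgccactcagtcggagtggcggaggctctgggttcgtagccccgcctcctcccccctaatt
Sema5a: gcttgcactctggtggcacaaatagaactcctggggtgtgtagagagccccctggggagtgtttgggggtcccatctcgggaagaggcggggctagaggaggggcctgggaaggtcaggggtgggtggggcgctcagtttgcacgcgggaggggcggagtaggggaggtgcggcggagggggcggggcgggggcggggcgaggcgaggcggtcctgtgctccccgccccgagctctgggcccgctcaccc

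After 1 week off dox no guidance probe set was called in VP16-CREB mice, against 0.237% of all tested probe sets, and 7 of 120 had an unadjusted p under 0.05 (5.83%, against 5.27% of all). The median member was -0.11, against 0.02 over all tested, and 82 of 120 were below 0 (68.3%, against 47% of all). Pools did not overlap in 31 lower members (25.8%, against 12.9%) and 10 higher members (8.33%, against 15.7%), with 2 pools a group. Of the 2 control pools, pool 2 had the high actin ratio given above (2.004), whose part in these counts was not tested. Centring arrays on their medians moved the member median to -0.21 and that of all probe sets to -0.09.

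Epha4 pointed the other way at 4 of its 5 probe sets at this time, 2 of them without overlap. At 1421929_at the early controls read 256 and 382 and the VP16-CREB pools 502 and 651, without overlap. The log2 difference there was 0.85 (SE 0.32, limma adjusted p = 0.715). The brightest Epha4 probe set, 1429021_at, differed by -0.30 with overlap. It read 2157 and 3595 in controls and 1837 and 2769 in VP16-CREB pools. Epha7 at 1452380_at read 2025 and 2808 against 1680.4 and 2047, which overlapped (-0.36, 95% interval -0.80 to 0.08), and its other probe sets differed by -0.21 to -0.50. Ntng1 at 1449286_at read 703 and 1015 against 643 and 481, without overlap (-0.59, adjusted p = 0.75), and all 4 of its probe sets were below 0. Sema5a at 1434776_at read 971 and 1058 against 761 and 895, without overlap (-0.29), and Sema4d at 1420824_at differed by -0.05 with overlap.

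The member of lowest unadjusted p in the early cohort was Slit3, which encodes a secreted Slit, with 227 and 282 in controls and 156 and 164 in VP16-CREB pools (-0.63, SE 0.20, limma adjusted p = 0.491). The largest differences without overlap, apart from Epha4, were in dim probe sets. Sema3f at 1438947_x_at read 214 and 209 against 63.3 and 114 (-1.21), and Ntng2 read 7.03 and 13.2 against 57.1 and 18.6 (1.14). Sema3a at 1449865_at read 29.4 and 35.4 against 63 and 93.4 (1.04), and Sema3b read 209 and 133 against 118 and 68.5 (-0.82). None of the 4 was called, with adjusted p of 0.89 or more, and single pools decided the size of 2 of them. The Ntng2 difference was 0.53 without VP16-CREB pool 1, 1.76 without VP16-CREB pool 2 and 1.76 with no pseudocount. That of Sema3b was -0.51 without control pool 1 and -0.47 without VP16-CREB pool 2.

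The late and early VP16-CREB effects were compared directly as a difference of differences. No member passed, against 0.0037% of all tested probe sets, and 13 of 120 had an unadjusted p under 0.05 (10.8%, against 4.99% of all). The lowest p was that of Epha4 at 1421929_at, whose late effect was lower than its early effect by -1.90 on the log2 scale (SE 0.42, unadjusted p = 0.000516, limma adjusted p = 0.237). For Epha7 at 1452380_at the difference was -0.85 (adjusted p = 0.62), for Sema5a at 1434776_at -0.79 (0.688), for Sema4d at 1420824_at 0.80 (0.561) and for Robo2 -0.93 (0.531). A change of the effect between the times was thus not shown for any member at this number of pools.

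In A-CREB hippocampus no guidance probe set was called, and 0% of all tested probe sets were, so that the absence is not particular to these genes. At an unadjusted p under 0.05 there was 1 of 120 members (0.833%, against 4.33% of all), Robo2, which read 17.4, 15.7 and 13.9 in controls and 26.5, 22.8 and 23.2 in A-CREB pools (0.41, SE 0.17, limma adjusted p = 1), at the dim end of the scale. The median member was -0.04, and 68 of 120 were below 0 (56.7%, against 49.5% of all). Pools did not overlap in 3 higher members (2.5%, against 3.54%) and 1 lower member (0.833%, against 3.28%). These were Robo2, Sema3f (66.3, 70.2 and 143 against 238, 163 and 189, a difference of 1.06), Plxna2 at 1455037_at (0.18, and 0.08 without control pool 3) and Ntn4 (-0.23). The Robo2 difference was 0.63 with no pseudocount and 0.27 with a pseudocount of 25.

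For the genes called in late VP16-CREB mice, the interval of the A-CREB difference spanned 0 at each of those probe sets. Epha7 at 1452380_at read 2290.3, 1736 and 1830.5 in controls and 1813, 1854 and 2181 in A-CREB pools, which overlapped (0.00, 95% interval -0.35 to 0.36). The interval was -0.52 to 0.20 for Sema5a at 1434776_at, -0.41 to 0.23 for Sema4d at 1420824_at, -0.59 to 0.23 for Ntng1 at 1449286_at and -0.65 to 0.49 for Epha4 at 1421929_at.

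The late VP16-CREB and A-CREB effects differed for 1 member, Epha7 at 1452380_at (-1.22, SE 0.23, 95% interval -1.72 to -0.72, limma adjusted p = 0.0247). That is 0.833% of the members, against 0.0592% of all tested probe sets called lower and 0.887% called in either direction, and 11 of 120 members had an unadjusted p under 0.05 (9.17%, against 8.7% of all). The call was lost without control pool 1 or 3 or any VP16-CREB pool of the late cohort, and without control pool 2 or 3 or transgenic pool 3 of the A-CREB cohort, with adjusted p of 0.0522 to 0.0764 in those fits, and it was also lost with no filter on low values (0.0789) and with the replicate number as a block (0.0762). The differences of Sema4d (0.83, adjusted p = 0.102), Sema5a (-0.92, adjusted p = 0.11) and Robo2 (-0.90, adjusted p = 0.135) did not pass.

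**Figure D4:**
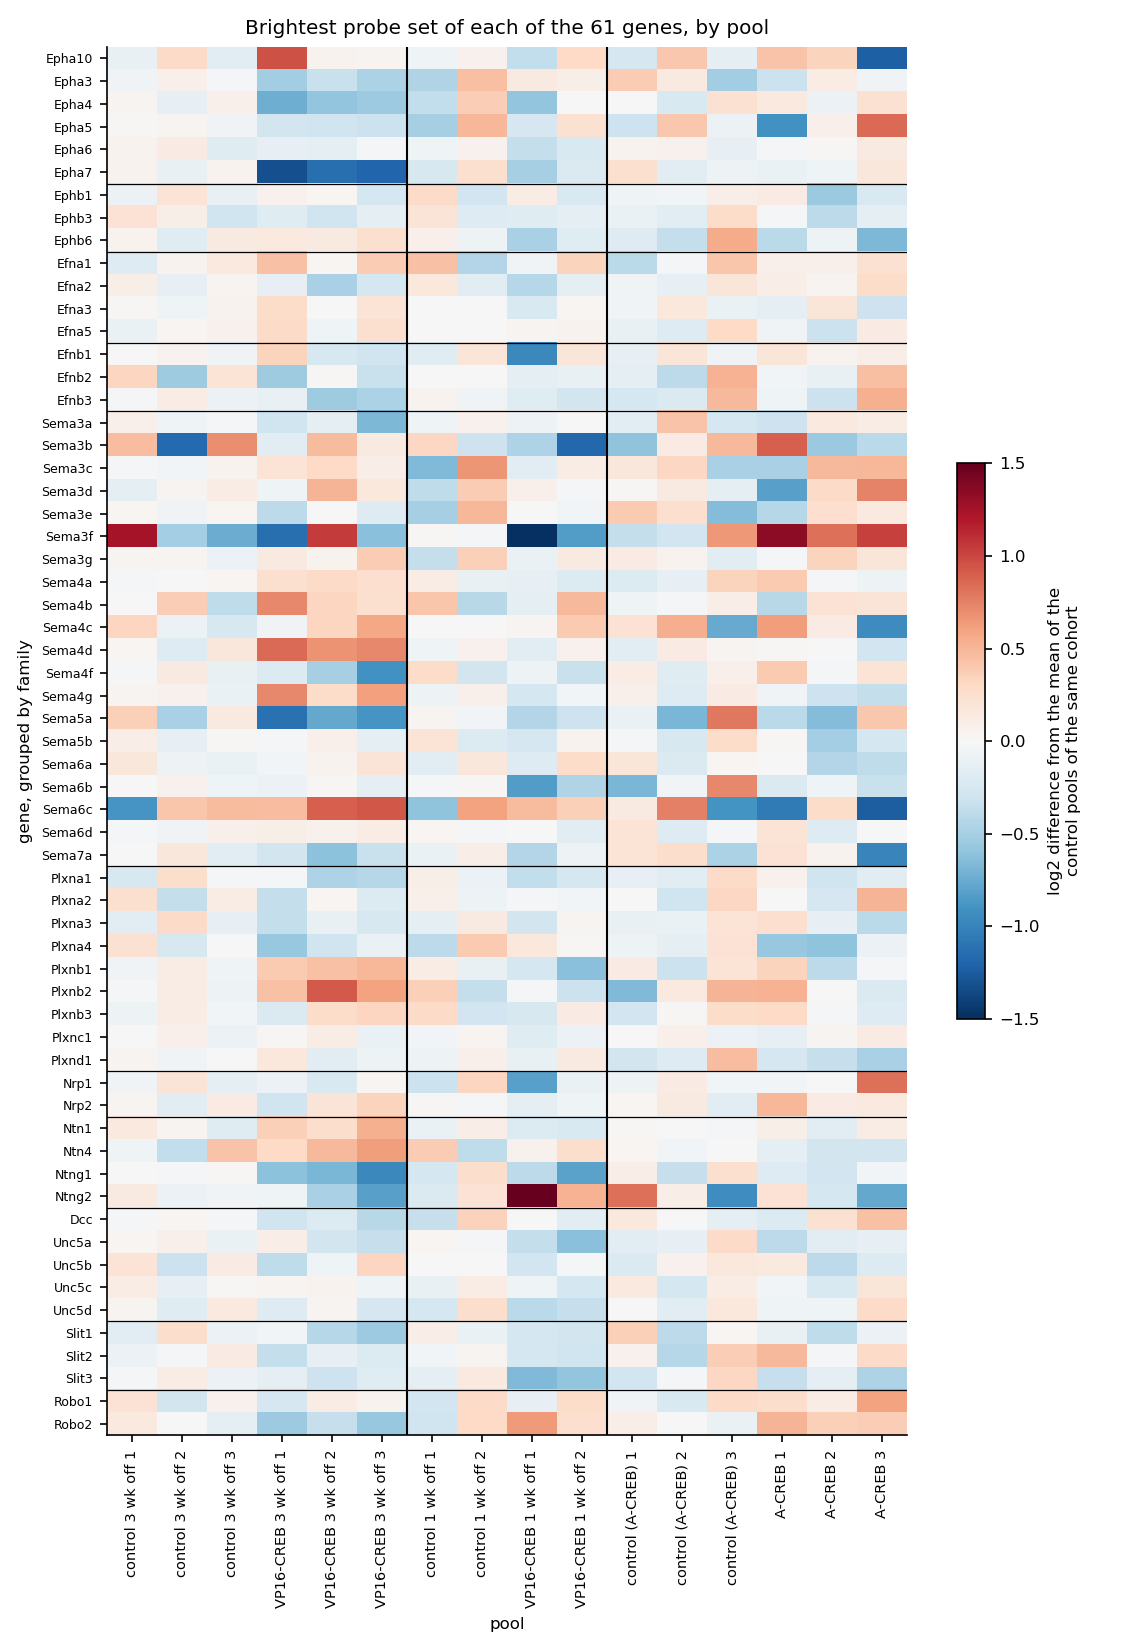
Heat map of the brightest probe set of each of the 61 genes (rows, by family) in each of the 16 pools (columns), as log2 difference from the mean of the control pools of the same cohort, with colours ending at -1.5 and 1.5. Epha7 is lowest in the 3 late VP16-CREB pools, and 50 and 38 of 61 genes lie below the control mean in the early VP16-CREB pools, the first of which runs from -1.59 to 1.76.

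Control littermates of 6 weeks from the A-CREB cohort were set against those of 3 weeks from the early VP16-CREB cohort, where age, cohort and dox history cannot be told apart. No member was called, against 0% of all tested probe sets, and 8 of 120 had an unadjusted p under 0.05 (6.67%, against 5.56% of all). Higher at 6 weeks without overlap were 9 members (7.5%, against 7.82%), and lower were 8 (6.67%, against 6.64%), so the members' shares were close to the background. The lowest p was that of Plxnc1, a receptor for Sema7a, at 1450906_at, with 51.9 and 40.7 at 3 weeks and 99, 98.5 and 77.5 at 6 weeks (0.85, SE 0.25, limma adjusted p = 0.5). Efna5 read 325 and 327 at 3 weeks and 437, 414 and 586 at 6 weeks (0.53, adjusted p = 0.67). The 5 Plxnc1 probe sets ran from -0.58 to 0.85, with 3 below 0. The late-cohort controls, also 6 weeks of age, read 428, 236 and 340 for Plxnc1 at 1450906_at and 284, 312 and 319 for Efna5.

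Proteins that carry the guidance signal into the cell were read from a list of 53 genes, of which 50 were tested. In the late cohort 2 of 50 fell, none rose, and 10 had an unadjusted p under 0.05 (median 0.04), against 0.651% called lower, 3.28% called higher and 13.5% at an unadjusted p under 0.05 over all tested probe sets. The genes that fell were Tiam1, an exchange factor that activates Rac (2026 ± 165 in controls and 1281 ± 72.9 in VP16-CREB pools, SD, n = 3 each, log2 difference -0.66, limma adjusted p = 0.0132), and Chn1, the Rac-inactivating chimaerin that acts downstream of EphA4 (17080 ± 2010 and 10470 ± 1540, -0.71, adjusted p = 0.0229). Of the exchange factors that bind Eph receptors, Ngef read 1815 ± 101 against 1218 ± 93.8 (adjusted p = 0.119) and Vav2 112.1 ± 29.2 against 218.2 ± 40.7 (adjusted p = 0.0886), and neither passed. Among other guidance cues and co-receptors, 14 of 16 were tested and none passed in the late cohort, with 1 at an unadjusted p under 0.05. In the early cohort and in A-CREB mice, neither list had a call, and 1 and 0 genes of the signalling list and none of the other had an unadjusted p under 0.05.

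The genes that fell in the late cohort did so where 9 of 10 dentate granule neuron markers fell and 17 of 18 microglial markers rose. The median difference was -1.55 for the dentate markers, -0.59 for the CA1 markers and -0.24 for the CA3 markers, of which 1 of 7 fell. Beside these, Epha7 at 1452380_at differed by -1.21, Sema5a at 1434776_at by -1.08, Epha4 at 1421929_at by -1.05 and Ntng1 at 1449286_at by -0.76. The part of the cell make-up in these differences was not tested.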

How the data were processed

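Hippocampal RNA pools were hybridised to 16 Affymetrix Mouse Genome 430 2.0 arrays. The deposited table holds linear intensities per probe set, made with MAS5 per the submitters' processing notes; its version and detection calls are not given in the sources used here. Arrays share a trimmed mean (2% trimmed at each end) of 500, and the number of arrays limits the precision. Probe sets were named by the platform annotation, with positions and promoters from RefSeq (GRCm38.p6); all 61 member genes matched by symbol. A total of 64 control probe sets were left out. Intensities above 99 on at least 2 arrays were tested as log2(intensity + 10) in limma 3.58.1 (R 4.3.3), with 1 coefficient per group over all 16 arrays (10 residual degrees of freedom, eBayes), two-sided, with Benjamini-Hochberg adjustment over 27047 probe sets.

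Members and lists were chosen with earlier results of these data known. Named members are those called, the 5 largest differences without overlap in each transgene comparison, and the 2 brightest genes per family; others are given to complete a family and were chosen after their values were seen. The alternatives were other pseudocounts, filters, scalings, variance models and array sets, 1 probe set per gene, the replicate number as a block, and each replicate left out. On simulated data for the late VP16-CREB comparison (27047 probe sets), 47 of 100 planted 2-fold and 87 of 100 planted 4-fold changes were called, with 8 false calls. The simulated data held no other changes, whereas 1062 probe sets were called in the real comparison. The adjusted p depends on how many probe sets change, so these shares are not the power of that comparison.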

Additional observations from a re-analysis of the deposited data

Results flagged for a closer look

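One result differed between the late VP16-CREB and A-CREB cohorts by a test of the difference itself. Transgene, dox history and cohort cannot be told apart in that comparison. The late VP16-CREB effect on Epha7 at 1452380_at minus the A-CREB effect was -1.22 on the log2 scale (SE 0.23, limma adjusted p = 0.0247), with a VP16-CREB difference of -1.21 and an A-CREB difference of 0.00. The call was lost in 10 of 22 alternatives, which were 8 of the fits with 1 pool left out, the fit with no filter (adjusted p = 0.0789) and the fit with the replicate block (0.0762).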

How the results depend on the processing

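At 3 weeks off dox 6 members were called, and 12 when only the arrays of that cohort were fitted, all from Epha4, Epha7, Ntng1, Sema4d and Sema5a. Leaving out 1 pool gave 2 to 4. The other alternatives gave 4 to 9. Among single probe sets, only those called and the largest differences without overlap were recomputed, and none of these was reversed. Epha7 at 1452380_at (adjusted p = 7.97e-05 to 0.00544) and Sema5a at 1434776_at (0.000444 to 0.014) passed in all 16 and 15 alternatives. Ntng1 at 1449286_at did not pass in 9 of 16 and Epha4 at 1421929_at in 8 of 15, the left-out pools and the fit with no filter among them for both. For the difference between the late VP16-CREB and A-CREB effects the count of 1 became 0 with no filter, 0 with the replicate block and 2 with 1 probe set per gene (Epha7 and Sema4d), and 0 to 1 with 1 pool left out. The early, A-CREB and control comparisons and the difference of late and early effects gave 0 in every alternative run, A-CREB without both replicate 1 pools included. The replicate numbers were not taken as pairs, since the labels give no pairs. In the late cohort same-numbered pools correlated at -0.164, -0.228 and 0.218, and differently numbered pools at -0.284 to 0.338. In the A-CREB cohort the values were -0.0517, 0.406 and 0.266 against -0.366 to 0.0526. Both A-CREB cohort pools numbered 1 also share a low Xist intensity, so matched pools are not excluded in that cohort. In the early cohort same-numbered pools correlated at 0.153 and the others at -0.153. With 2 pools a group these are equal in size by construction, so they are not separate readings. With the replicate block 9 members were called at 3 weeks, 0 at 1 week and 0 in A-CREB mice. The causes of these shifts were not tested, apart from the fewer arrays or probe sets that some alternatives use by construction. With 2 or 3 pools a group, changes of the size of 2-fold were recovered in 47 (late), 34 (early) and 50 (A-CREB) of 100 simulated cases. The simulated data held only the planted changes, whereas 1062 (late), 64 (early) and 0 (A-CREB) probe sets were called in the real data. These shares are therefore not the power of the real comparisons.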
